A study of Mus musculus with 21 samples.

Results

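The autophagy and mitophagy genes described here are 40 genes taken by name from the 19096 genes of a mouse heart expression matrix, and reads were assigned to all 40. They cover the steps of autophagosome formation, the receptors that bring cargo to it, and the proteins that mark mitochondria for removal. The series models a form of heart failure in which the heart stiffens while its ejection fraction is preserved. It combines obesity from the diet with hypertension driven by renin, the enzyme at the head of the angiotensin cascade, and asks what each hit and both together do to heart RNA. Hearts came from 21 male C57BL/6NJ mice that entered at 8 to 10 weeks of age, ate chow or a 60% kcal high-fat diet over 10 weeks, and were collected 6 weeks after a retro-orbital injection.

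Chow control (n = 4) ate chow without renin virus, chow renin (n = 6) ate chow and received AAV-Renin, an adeno-associated virus that carries renin, high-fat control (n = 6) ate the high-fat diet without renin virus, and high-fat renin (n = 5) had both. The sample labels name the groups without renin as having no virus, while the design text gives them a null vector, so which of these they received cannot be told from the labels. The promoter and the species of the renin construct are not given in the sources used here. All groups share strain, sex, age range and tissue, and the whole heart was freeze clamped. In such bulk tissue, fewer cells of a type and less RNA per cell cannot be told apart. The design text counts mice per group, so each library was taken as 1 animal.

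Autophagy starts when the ULK1 kinase complex switches on a lipid kinase complex around BECN1, and a cup of membrane then grows with the help of WIPI, ATG2 and ATG9 proteins. Ubiquitin-like conjugation by ATG3, ATG5, ATG7, ATG10, ATG12 and ATG16L1 attaches LC3 and GABARAP proteins to that membrane, and ATG4 proteases prepare and release them. Mitophagy receptors such as BNIP3 sit on the outer mitochondrial membrane and bind LC3 directly, while the kinase PINK1 marks damaged mitochondria through ubiquitin. Heart muscle is rich in mitochondria and relies on both routes, and most of their control in a cell acts on the proteins, which RNA levels do not report.

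The libraries held 18.7 to 29.3 M estimated reads each, and the chow control totals, 18.7 to 21.4, were below all others, which started at 22.8. Genes that mark heart muscle were abundant in all libraries, Myh6 for example at 20950 to 35147 CPM, reads scaled to a fixed library total. Ren1, the mouse renin gene, had reads in 4 of 21 libraries and at most 5 in any, so it did not check which animals received the virus. The 15 marker genes of central nervous tissue summed to 301 to 494 CPM in chow renin against 90.3 to 165 in the other groups, and none of the 6 chow renin hearts overlapped the rest. Markers of the atrium were high in 5 libraries, chow control replicate 3, chow renin replicates 1 and 3, high-fat control replicate 3 and high-fat renin replicate 3. A clock score was the mean log2 CPM of 4 circadian clock genes, Arntl, Npas2, Clock and Nfil3, minus that of 8 others. The 8 were Dbp, Tef, Hlf, Nr1d1, Nr1d2, Per2, Per3 and Ciart. This score spanned -3.84 to -3.53 in chow control, -3.27 to -2.98 in chow renin, -3.61 to -3.31 in the high-fat controls and -3.36 to -2.18 under both hits. The 7 heart muscle markers summed to 43091 to 50524 CPM in high-fat renin and 49344 to 51909 in chow renin, both below all chow control hearts at 53370 to 64908, and to 50688 to 59172 in high-fat control. Not all of the 7 markers followed these sums between all groups. Ryr2 had a mean of 997 CPM in high-fat renin against 974 in chow control, and Actc1 8164 in high-fat renin against 6096 in chow renin. Tnni3 had a mean of 2276 CPM in high-fat control against 2194 in chow control, where the median sums were 55032 and 62333. Mitochondrial transcripts took 29.8 to 38.2% of the reads.

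Bnip3 and Pink1 are the mitophagy genes that the results below turn on, and under renin on the high-fat diet Bnip3 rose and Pink1 fell. Their promoters are shown because the core letters CACGTG are bound by TFEB, a member of the set and the master regulator of lysosomal genes, and because ACGTG is the core that hypoxia-inducible factors bind. The 250 bases before the RefSeq start (build GRCm38.p6) are given 5′ to 3′ with CACGTG in capitals, Bnip3 at chr7:138909507-138909756 and Pink1 at chr4:138326297-138326546, both on the minus strand.
Bnip3: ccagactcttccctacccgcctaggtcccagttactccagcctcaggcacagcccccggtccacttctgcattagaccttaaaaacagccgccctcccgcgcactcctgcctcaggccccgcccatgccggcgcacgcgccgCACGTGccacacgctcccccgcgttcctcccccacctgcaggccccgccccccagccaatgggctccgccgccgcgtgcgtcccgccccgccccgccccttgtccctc
Pink1: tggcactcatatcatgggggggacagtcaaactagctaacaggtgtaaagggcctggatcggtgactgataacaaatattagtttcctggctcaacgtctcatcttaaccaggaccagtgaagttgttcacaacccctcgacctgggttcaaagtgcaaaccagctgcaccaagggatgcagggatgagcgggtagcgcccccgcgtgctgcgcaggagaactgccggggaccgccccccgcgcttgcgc
The Bnip3 window held CACGTG and has a GC content of 72.4%, and the Pink1 window held neither CACGTG nor ACGTG on either strand and has a GC content of 57.2%.

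Of the 40 members, 33 have a window in the RefSeq table of promoters, from 250 bases before to 50 after each start. CACGTG, which reads the same on both strands, was in the windows of 5 of the 33 (15.2%), against 8.09% of 27025 genes. The 5 were Atg3, Atg5, Atg7, Atg14 and Bnip3, and their 6 sites are printed with CACGTG in capitals and with the distance of its first base from the start.
Atg7 (chr6:114670954-114670979, plus strand, motif from -132): tattggtggtCACGTGtgcagtaagt
Bnip3 (chr7:138909599-138909624, minus strand, motif from -108): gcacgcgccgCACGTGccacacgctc
Atg5 (chr10:44268315-44268340, plus strand, motif from -14): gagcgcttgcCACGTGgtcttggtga
Atg14 (chr14:47568420-47568445, minus strand, motif from -1): aacaaaatccCACGTGactggccctg
Atg3 (chr16:45158725-45158750, plus strand, motif from -94): ctccttttgtCACGTGtcctgggaga
Atg3 (chr16:45158748-45158773, plus strand, motif from -71): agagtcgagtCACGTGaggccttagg
Among these 5 genes Bnip3 was called in a comparison below and the other 4 were not. The shorter ACGTG, counted on both strands and contained in every CACGTG, was in 16 of 33 members (48.5%) against 21.8% of all genes. The forkhead letters GTAAACA, on either strand, were in 0 of 33 against 4.05%. These counts describe letters in a window and were not tested.

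On a per-length scale (TPM, transcripts scaled to a fixed sum per library), the 40 genes spanned from 274 ± 4.50 TPM for Map1lc3a to 1.42 ± 0.200 TPM for Atg4c in chow control (SD, n = 4). Map1lc3a encodes LC3A, a protein that coats the autophagosome, and was followed by Pink1 at 228 ± 15.0 TPM and by Sqstm1, the cargo receptor p62, at 179 ± 34.9 TPM. Gabarap at 95.9 ± 8.23 and Bnip3 at 86.7 ± 1.93 TPM came next and lay within their spread of each other. Map1lc3b at 65.6 ± 6.95 and Gabarapl1 at 59.8 ± 12.5 TPM did so as well. The low end held Atg2a, Atg14, Atg4a and Atg4c, all under 3.5 TPM. Thus 4 coat genes, a cargo receptor and 2 mitophagy genes led the order. Wipi1 at 37.7 and Becn1 at 34.1 TPM followed, ahead of the coat gene Gabarapl2 at 29.6 TPM. In high-fat renin Sqstm1 stood at 214 ± 37.2 and Pink1 at 182 ± 37.3 TPM, within the spread of each other. Estimated reads summed over all libraries ranged from 2553 for Atg4c to 301119 for Pink1.

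**Figure D1:**
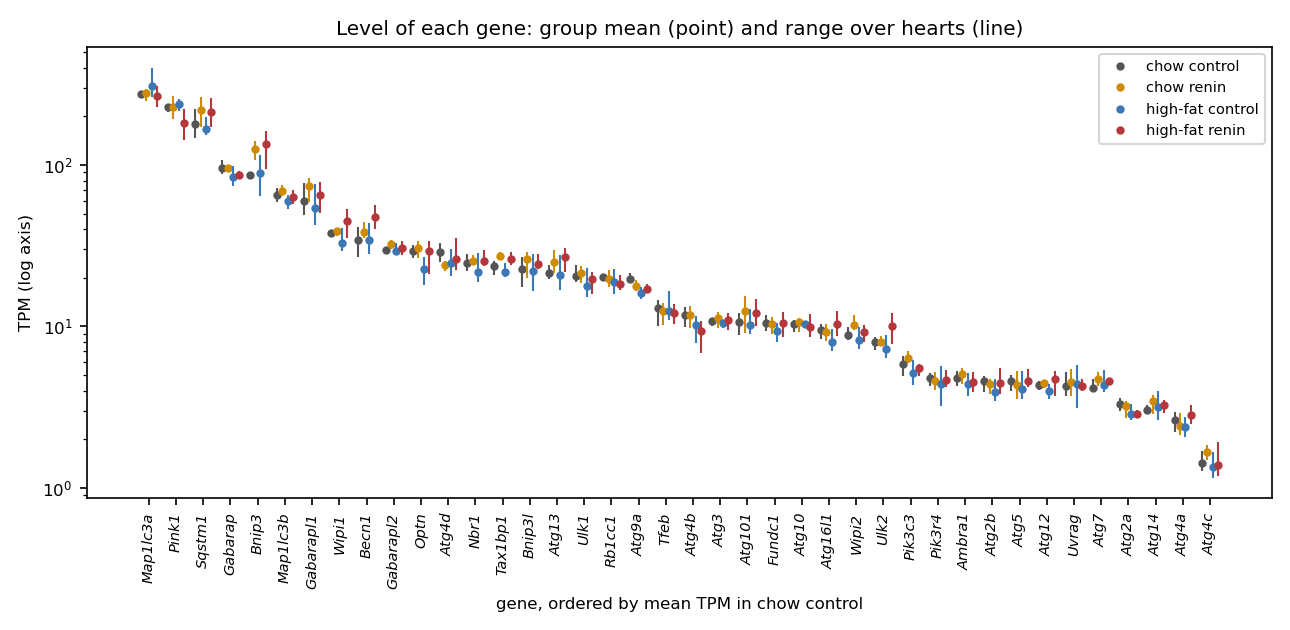
Level of each of the 40 genes in TPM on a log axis, ordered by the chow control mean, with a point for the group mean and a line for the range over hearts in each of the 4 groups. Map1lc3a, Pink1 and Sqstm1 lead, Atg4c is lowest, and the 4 groups lie close together for most genes.

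The spread between hearts of a group differed by gene and by group. Averaged over the 4 groups, a gene's coefficient of variation of CPM ranged from 3.78% for Bnip3l to 15.7% for Gabarapl1, with a median of 8.77%, beside 9.39% over tested genes at or above the mean level of the lowest member. Within single groups it was lowest for Wipi2 in chow control, 1.86%, and highest for Pink1 in high-fat renin, 23.1%. The most variable gene was Sqstm1 in chow control at 17.9%, Atg101 in chow renin at 20.4% and Optn in high-fat control at 19.5%. CPM here are normalized by the TMM method, which corrects for library composition.

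Differences between groups were small. A gene was called where the quasi-likelihood F test of edgeR gave an adjusted p under 0.05, with adjustment over all 15216 tested genes, and all 40 members were tested. Over 6 comparisons and 40 genes, 20 of 240 pairs were called, 14 higher and 6 lower. The pairs fell on 13 genes, and 27 genes were called in no comparison. The largest difference was that of Bnip3 between high-fat renin and chow control, 0.57 on the log2 scale or 1.49-fold. Bnip3, Ulk2 and Wipi1 were called in 3 comparisons each, and Atg9a in 2.

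High-fat renin against chow control asks what both hits do together. Bnip3 and Atg13 rose and Atg9a and Atg2a fell, 4 of 40 members (10%) against 8.31% of all genes tested, with 4.05% of all genes higher and 4.26% lower. The median log2 fold change was 0.01 for the members and 0.01 for all genes, and the median size of change was 0.10 against 0.16, or 0.13 among the 10101 tested genes at or above the mean level of the lowest member. Of those 10101 genes 9.99% were called, 4.78% higher and 5.21% lower. An unadjusted p under 0.05 was found for 11 members. Leaving out 1 library gave 1 to 6 calls, and 3.68 to 11.4% of all genes. With the clock score in the fit 0 members were called, 3 having an unadjusted p under 0.05, and 0 of all 15216 genes. The heart muscle markers did not overlap between these groups, and the proliferation markers summed to 11.1 to 35.5 CPM against 10.9 to 11.6, and the part of both was not tested.

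Chow renin against chow control asks what renin does alone. Bnip3 rose and Atg9a and Atg4d fell, 3 of 40 members (7.5%) against 13.5% of all genes. The share of all genes higher was 10.1% and lower 3.36%. The members had a median log2 fold change of -0.07, with 27 of 40 below 0, and all genes one of -0.03. Among the 10101 genes at the members' level 9.51% were called, 4.65% higher and 4.86% lower. Markers of several kinds moved with this comparison without overlap between the groups, those of central nervous tissue, the 4 proliferation markers (23.5 to 32.6 CPM in sum against 10.9 to 11.6) and the heart muscle markers, and the part of the latter 2 was not tested. With the central nervous score in the fit 0 members were called, 3 having an unadjusted p under 0.05, while calls over all genes fell to 0.269%. Of that score's variance 89.5% lay between the groups, so the score and the group cannot be told apart.

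High-fat control against chow control asks what the diet does alone. By edgeR 0 of 40 members were called, against 0.0657% of all genes, with 0.0131% higher and 0.0526% lower. At an unadjusted p under 0.05 there were 2, and DESeq2 called 0. The members' log2 fold changes ran from -0.25 for Optn to 0.28 for Map1lc3a, with a median of 0.00.

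Renin on the high-fat diet, high-fat renin against high-fat control, gave 5 calls of 40 (12.5%) against 11.1% of all genes. Bnip3, Wipi1 and Ulk2 rose, where 6.07% of all genes were higher, and Pink1 and Map1lc3a fell, where 5.08% were lower. Among the 10101 genes at the members' level 14.4% were called, 7.54% higher and 6.86% lower. The median size of change was 0.11 for the members, 0.12 for the genes at their level and 0.15 for all genes. Adding the clock score to the fit left 0 calls among the members, with 3 at an unadjusted p under 0.05, and 0 calls among all 15216 genes. With only these 2 groups in the fit 1 was called, Pink1, and 3.81% of all genes. On the log2(TPM + 1) scale limma called 9, 8 higher and 1 lower, and 14.8% of all genes. Over the 6 comparisons that scale shifted the median of all genes by up to 0.116. Without high-fat renin replicate 1, 2 or 5 edgeR called 2, 3 or 3, and 4.58%, 6.13% or 5.17% of all genes.

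The diet under renin, high-fat renin against chow renin, gave 6 calls, all higher. Ulk2, Becn1, Wipi1, Atg4a, Atg16l1 and Atg12 rose, 6 of 40 members (15%) against 22.6% of all genes, with 9.8% higher and 12.8% lower. Among the 10101 genes at the members' level 20.5% were called, and there the higher calls were the more frequent, 13.5% against 7.05% lower. Of the 40 members 29 had a positive sign, with a median log2 fold change of 0.05 beside 0.02 for all genes. Adding the central nervous score to the fit left 0 calls among the members, with 1 at an unadjusted p under 0.05, and 0.25% of all genes. Without the 5 libraries of high atrial markers, a choice made after seeing the data, 2 were called, Ulk2 and Becn1, and 16.2% of all genes. The 5 fibroblast markers summed to 633 to 948 CPM (median 704) in high-fat renin and 421 to 633 (median 433) in chow renin. Their part in these calls was not tested.

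The interaction subtracts the effect of renin on chow from its effect under the high-fat diet. Ulk2 and Wipi1 were called, both positive, 2 of 40 members (5%) against 10.4% of all genes, with 3.14% positive and 7.3% negative. Among the 10101 genes at the members' level 7.92% were called, 4.38% positive and 3.54% negative. Both lost the call without the libraries of high atrial markers and with the central nervous score in the fit. High-fat renin and chow control each enter several of these comparisons, so the comparisons share samples and do not bear on each other independently.

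**Figure D2:**
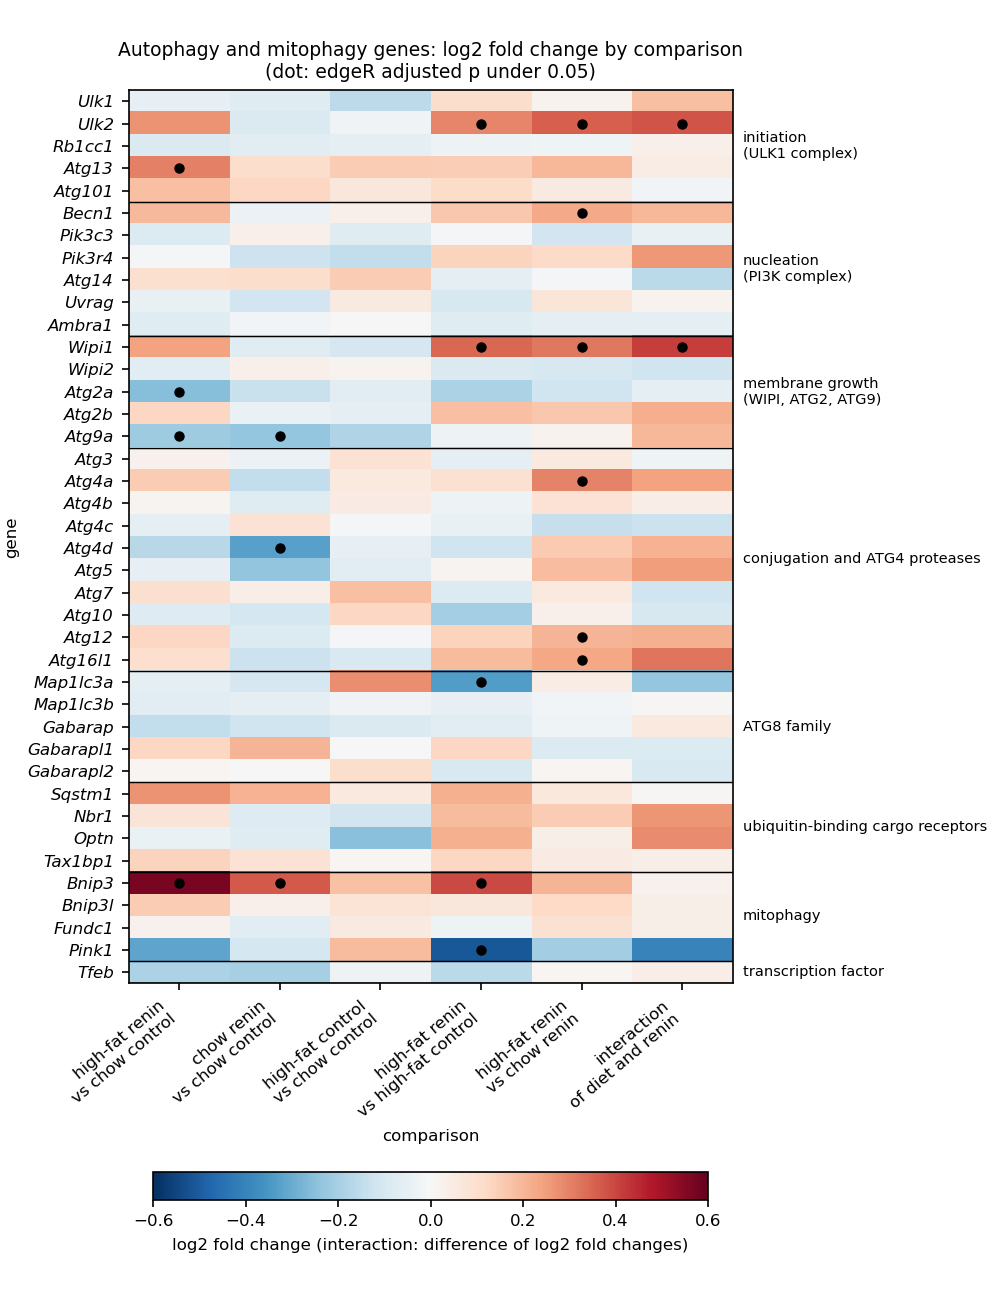
Log2 fold change of each gene (lines, grouped by role) in each of the 6 comparisons (columns), red for higher and blue for lower, with a dot where the edgeR adjusted p was under 0.05. Of the 20 dots, Bnip3, Ulk2 and Wipi1 carry 3 each, and high-fat control against chow control has none.

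Among the mitophagy genes, Bnip3 was higher in both renin groups and Pink1 was lower in high-fat renin, while Bnip3l and Fundc1 were called nowhere. Bnip3 (ENSMUSG00000078566, GRCm38 chromosome 7, 138890836 to 138909519, minus strand) encodes a receptor on the outer mitochondrial membrane and is a known target of hypoxia-inducible factor. Bnip3 measured 125, 132, 119.5 and 123 CPM in chow control and 118 to 170.1 with a median of 140.4 in high-fat control. In chow renin Bnip3 ranged from 139 to 181 CPM with a median of 161, and in high-fat renin it measured 192, 219.8, 174, 146 and 195 CPM. All 6 chow renin and all 5 high-fat renin hearts were above all 4 chow control hearts, and 4 of the 5 high-fat renin hearts were above all high-fat controls. The log2 fold change of Bnip3 was 0.57 between high-fat renin and chow control (SE 0.11, adjusted p 0.0026 by edgeR). On chow, renin gave Bnip3 0.37 (SE 0.10, adjusted p 0.0185 by edgeR), and on the high-fat diet 0.39 (SE 0.10, adjusted p 0.0115 by edgeR). These renin effects did not differ detectably between diets, with an interaction of 0.03 (SE 0.14, adjusted p 0.944 by edgeR). The first and the third of these calls held when any 1 library was left out, and the chow one was lost without chow control replicate 4 (adjusted p 0.0546). With the clock score as a covariate the values were 0.38 (adjusted p 0.614), 0.23 (adjusted p 0.382) and 0.27 (adjusted p 0.74) in the same order. With the central nervous score the chow renin value was larger, 0.50, and did not pass (adjusted p 0.607).

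Both coding transcripts that carried most of Bnip3 had higher means in the renin groups, a difference not tested per transcript. ENSMUST00000106112 took 67.4% of its TPM and measured 59.9 ± 3.33 TPM in chow control, 80.8 ± 4.36 with renin on chow, 62.4 ± 9.23 in high-fat control and 86.6 ± 11.0 with renin on the high-fat diet. ENSMUST00000130500 took 31.3% and measured 25.2 ± 1.81, 43.3 ± 8.58, 26.0 ± 12.8 and 46.8 ± 16.6 TPM in the same order (SD, n = 4, 6, 6 and 5). Of the 31-base words of Bnip3 transcripts, 57.0% also occur in other genes of the annotation, so the gene's assignment is uncertain. Of those sharing genes, the pseudogene Gm16439 measured at most 0.141 CPM, while AC160336.1 and Gm45507 were not analysed here.

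Pink1 (ENSMUSG00000028756, GRCm38 chromosome 4, 138313409 to 138326307, minus strand) encodes the kinase that builds up on depolarized mitochondria and calls in the ubiquitin ligase Parkin. Pink1 measured 578, 570.2, 613 and 654 CPM in chow control and 497 to 665 with a median of 552 in chow renin. It ranged from 631 to 743 CPM with a median of 682 in high-fat control and measured 352, 472, 585, 609.6 and 404 in high-fat renin. All 5 high-fat renin hearts were below all 6 high-fat controls, while they overlapped the chow groups. The log2 fold change against high-fat control was -0.51 (SE 0.11, adjusted p 0.00519 by edgeR), the largest of the 5 calls in that comparison. Against chow control it was -0.32 (SE 0.12, adjusted p 0.103 by edgeR) and did not pass, and the interaction was -0.40 (adjusted p 0.118 by edgeR). The call on the high-fat diet held without any 1 library and under 11 of 12 other settings of the test, and it was lost with the clock score as a covariate (-0.26, adjusted p 0.72). The summed heart muscle markers were lower in the same hearts, at 43091 to 50524 CPM against 50688 to 59172 in high-fat control, although Actc1 (8164 against 7310 CPM) and Ryr2 (997 against 947 CPM) had higher means there, and their part in the fall of Pink1 was not tested.

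Bnip3l encodes NIX, the close relative of BNIP3. Bnip3l measured 45.2, 46.7, 47.8 and 48.2 CPM in chow control and 48.9, 53.6, 53.4, 51.3 and 53.6 CPM in high-fat renin. Values in chow renin ranged from 44.8 to 50.2 with a median of 48.2 and high-fat control from 47.8 to 53.3 with a median of 49.4 CPM. All 5 high-fat renin hearts were above all chow controls, yet the log2 fold change of 0.15 missed the threshold (adjusted p 0.079 by edgeR). DESeq2, and edgeR on genes with a mean of at least 20 CPM, called it in that comparison. Fundc1, another receptor of the outer membrane, had log2 fold changes between -0.07 and 0.09 over the 6 comparisons, none called.

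**Figure D3:**
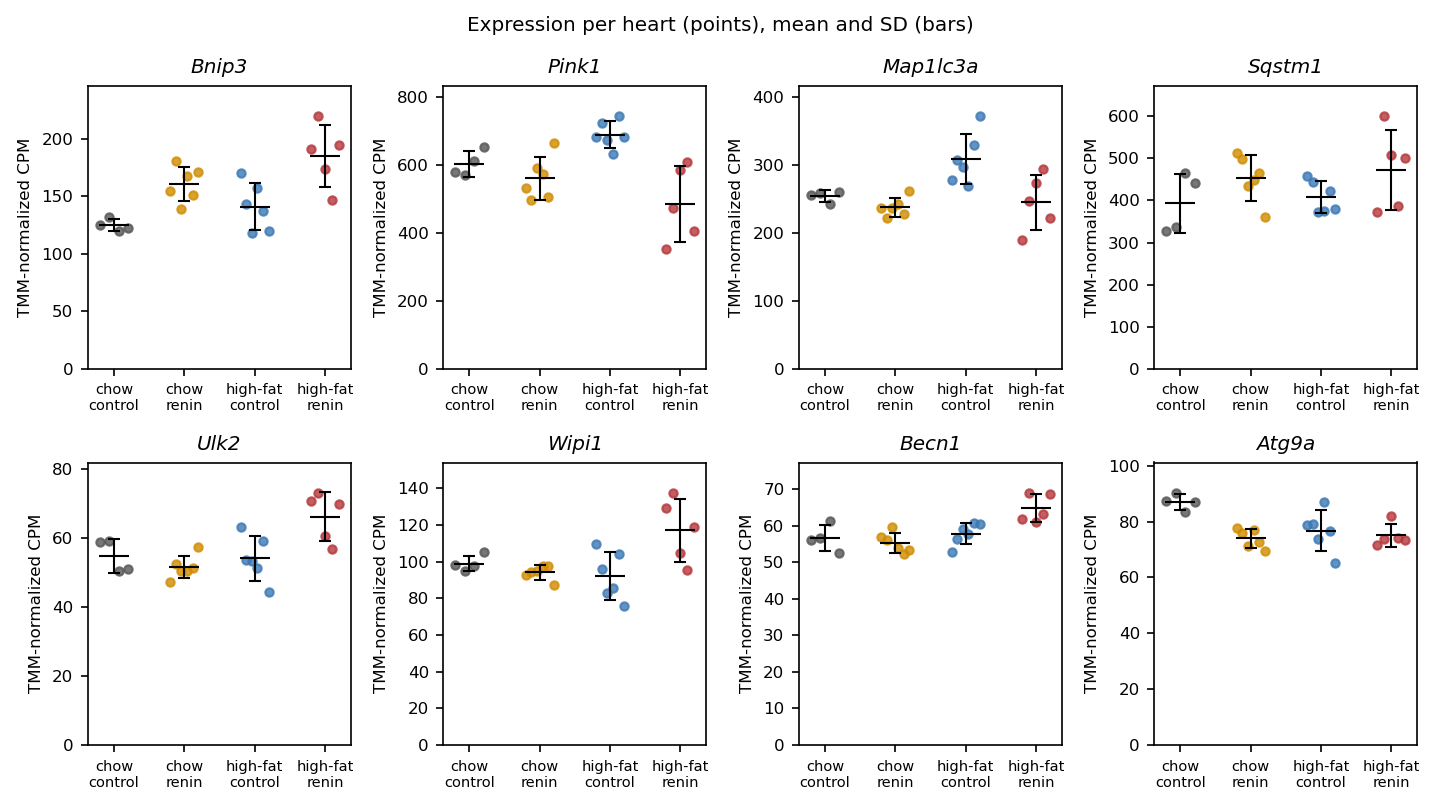
CPM per heart (points) with the group mean and SD (bars) for 8 genes in the 4 groups, each axis starting at 0. Bnip3 is higher in both renin groups than in chow control, Pink1 in high-fat renin lies below all high-fat control hearts, and the high-fat renin hearts are spread widely in Pink1, Wipi1 and Sqstm1.

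In the initiation complex Ulk2 was higher under both hits than in high-fat control or chow renin, Atg13 rose against chow control, and Ulk1, Rb1cc1 and Atg101 were called nowhere. Ulk2 (ENSMUSG00000004798, GRCm38 chromosome 11, 61775649 to 61855073, minus strand) encodes a kinase that shares the role of ULK1. Ulk2 measured 59.0, 59.2, 50.4 and 51.0 CPM in chow control and 47.4 to 57.5 with a median of 51.0 in chow renin. It ranged from 44.3 to 63.1 CPM with a median of 53.5 in high-fat control and measured 70.8, 73.2, 60.6, 57.0 and 69.8 in high-fat renin. Thus 4 of 5 high-fat renin hearts were above all chow renin hearts and 3 of 5 above all high-fat controls. Its log2 fold change was 0.36 against chow renin (SE 0.08, adjusted p 0.0022 by edgeR) and 0.29 against high-fat control (SE 0.08, adjusted p 0.0242 by edgeR). The renin effect on Ulk2 was larger on the high-fat diet than on chow by 0.38 (SE 0.12, adjusted p 0.0428 by edgeR). Against chow control it was 0.27 and missed the threshold (adjusted p 0.0658 by edgeR). The call against chow renin held without any 1 library. It was lost with the central nervous score (0.05, adjusted p 0.998) and, at the threshold, by limma (0.29, adjusted p 0.05). That against high-fat control was lost when high-fat control replicate 6 was left out, or any of high-fat renin replicates 1, 2 and 5, and with the clock score (0.16, adjusted p 0.85). That of the interaction was lost in 14 of 21 omissions of 1 library (adjusted p up to 0.134).

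Ulk1, the better known kinase of the pair, stayed within its spread. Ulk1 measured 95.7, 108, 96.0 and 102 CPM in chow control, 93.8, 121, 92.3, 76.6 and 103 in high-fat renin, and 69.5 to 112 with a median of 92.1 in high-fat control. In chow renin it ranged from 83.1 to 106 CPM with a median of 96.2. The groups overlapped throughout, and its log2 fold changes lay between -0.16 and 0.18.

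Atg13 (ENSMUSG00000027244, GRCm38 chromosome 2, 91674618 to 91710576, minus strand) encodes the adaptor that ties the kinase to its scaffold. Atg13 measured 60.0, 61.1, 70.7 and 58.7 CPM in chow control and 75.2, 74.4, 85.7, 69.2 and 81.2 in high-fat renin. Chow renin ranged from 59.4 to 74.5 with a median of 66.8 and high-fat control from 57.1 to 83.5 with a median of 69.8 CPM. The log2 fold change of both hits against chow control was 0.30 (SE 0.09, adjusted p 0.0401 by edgeR), with 4 of 5 hearts above all chow controls. It passed under 5 of 12 other settings and was lost without any 1 of 7 libraries, chow control replicates 1, 2 and 4 and high-fat renin replicates 1, 2, 3 and 5 (adjusted p up to 0.132). Both chow control replicate 3, the highest of its group, and high-fat renin replicate 3, also the highest, were libraries of high atrial markers, and without all such libraries the log2 fold change was 0.31 (adjusted p 0.0694). With the clock score it was 0.25 (adjusted p 0.713).

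In the nucleation complex Becn1 was the single gene called. Becn1 (ENSMUSG00000035086, GRCm38 chromosome 11, 101285952 to 101302286, minus strand) encodes Beclin 1, the scaffold of the lipid kinase complex. Becn1 measured 56.1, 56.6, 61.5 and 52.7 CPM in chow control and 61.9, 69.1, 61.2, 63.3 and 68.8 in high-fat renin. Values in chow renin ranged from 52.3 to 59.7 with a median of 55.0 and high-fat control from 52.9 to 60.7 with a median of 58.4 CPM. All 5 high-fat renin hearts were above all chow renin and all high-fat control hearts. The log2 fold change against chow renin was 0.23 (SE 0.05, adjusted p 0.00343 by edgeR), a call that held without any 1 library. Against chow control it was 0.19 (adjusted p 0.0504 by edgeR) and against high-fat control 0.16 (adjusted p 0.054 by edgeR), both just missing the threshold, and DESeq2 called both. With a mean of at least 20 CPM the value against chow renin was 0.16 (adjusted p 0.0533), and with the central nervous score it was larger, 0.36, without passing (adjusted p 0.908).

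Per length, the differences of Becn1 from both control groups were larger. Becn1 measured 34.1 ± 6.04 TPM in chow control and 38.3 ± 3.48 in chow renin, beside 34.4 ± 5.54 in high-fat control and 47.9 ± 6.17 in the high-fat renin hearts (SD, n = 4, 6, 6 and 5). On the log2(TPM + 1) scale limma gave 0.49 against chow control (adjusted p 0.0205) and 0.47 against high-fat control (adjusted p 0.00785), while 0.31 against chow renin did not pass (adjusted p 0.0758). That scale shifted the median of all genes by up to 0.116 over the 6 comparisons. The coding transcript ENSMUST00000129863 took 23.1 ± 16.5% of the TPM of Becn1 in chow control (SD, n = 4) and 30.9 ± 4.66% in high-fat renin (SD, n = 5), within the spread of chow control. Transcripts annotated as coding took 37.7% of the TPM of Becn1 on average, and 39.6% of the 31-base words of Becn1 also lie in Cntd1, on the opposite strand, which measured 0.0408 to 0.66 CPM. The labels do not say whether strand was used in counting, so reads of the 2 genes are uncertain. The other 5 nucleation genes, Pik3c3, Pik3r4, Atg14, Uvrag and Ambra1, had log2 fold changes from -0.16 to 0.26, none called.

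Among the membrane growth genes Wipi1 was higher under both hits than in high-fat control or chow renin, while Atg9a and Atg2a fell against chow control, where Wipi1 did not pass (0.24, adjusted p 0.134 by edgeR). Wipi1 (ENSMUSG00000041895, GRCm38 chromosome 11, 109573331 to 109611967, minus strand) encodes a protein that reads the lipid mark made by the nucleation complex. Wipi1 measured 98.1, 95.0, 97.9 and 105 CPM in chow control and 129, 138, 105, 95.6 and 119 in high-fat renin. It ranged from 87.3 to 97.8 CPM with a median of 94.7 in chow renin and from 75.7 to 109.7 with a median of 90.7 in high-fat control. In high-fat renin 4 of 5 hearts were above all chow renin hearts and 3 of 5 above all high-fat controls. The log2 fold change of Wipi1 was 0.34 against high-fat control (SE 0.09, adjusted p 0.0157 by edgeR) and 0.32 against chow renin (SE 0.09, adjusted p 0.012 by edgeR). The renin effect on Wipi1 was larger on the high-fat diet by 0.42 (SE 0.13, adjusted p 0.04 by edgeR). Both pairwise calls were lost without high-fat renin replicate 1 or 2 (adjusted p up to 0.0711). The one against high-fat control was lost with only the groups compared (0.34, adjusted p 0.0922) and with the clock score (0.15, adjusted p 0.859). The one against chow renin was lost by limma (0.18, adjusted p 0.232) and with the clock score (0.24, adjusted p 0.0522). It was also lost without the libraries of high atrial markers (0.32, adjusted p 0.0593). The interaction call was lost in 16 of 21 omissions of 1 library. With the central nervous score in the fit the difference from chow renin was -0.14 (adjusted p 0.997). Wipi2, its relative, had log2 fold changes from -0.12 to 0.03.

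Atg9a (ENSMUSG00000033124, GRCm38 chromosome 1, 75180860 to 75192196, minus strand) encodes the membrane protein whose vesicles seed the autophagosome. Atg9a measured 87.2, 90.3, 83.4 and 87.0 CPM in chow control and 71.5, 73.9, 82.2, 74.2 and 73.4 in high-fat renin. Chow renin ranged from 69.6 to 77.5 CPM with a median of 74.2, and high-fat control from 65.2 to 87.1 with a median of 77.7. All renin hearts on either diet were below all 4 chow controls. Of the 31-base words of Atg9a, 30.6% also lie in Gm29253, which was not analysed here, so its assignment is uncertain. Its log2 fold change was -0.23 in chow renin (SE 0.06, adjusted p 0.0132 by edgeR) and -0.21 in high-fat renin (SE 0.07, adjusted p 0.0462 by edgeR), each against chow control. High-fat control against chow control gave -0.18 (adjusted p 0.288 by edgeR), and high-fat renin differed from high-fat control by -0.03 (SE 0.06, adjusted p 0.782 by edgeR). The chow renin call was lost without chow control replicate 1 or 2 or chow renin replicate 3, and the high-fat renin call without any 1 of 7 libraries (chow control replicates 1, 2 and 4 and high-fat renin replicates 1, 2, 4 and 5, adjusted p up to 0.125). The chow control libraries were also the least deeply sequenced, and thinned to 1 depth the values were -0.22 in high-fat renin (adjusted p 0.053) with the chow renin call kept. By limma the chow renin value was -0.13 (adjusted p 0.413), with the central nervous score -0.47 (adjusted p 0.378), and with the clock score the high-fat renin value was -0.14 (adjusted p 0.806).

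Atg2a (ENSMUSG00000024773, GRCm38 chromosome 19, 6241668 to 6262335, plus strand) encodes a lipid transfer protein that feeds the growing membrane. Atg2a measured 22.5, 24.4, 22.7 and 23.8 CPM in chow control and 18.0, 21.9, 19.3, 19.3 and 19.4 in high-fat renin. Values in chow renin ranged from 18.8 to 23.6 with a median of 21.1 and high-fat control from 19.2 to 25.2 with a median of 22.6 CPM. All 5 high-fat renin hearts were below all 4 chow controls, with a log2 fold change of -0.25 (SE 0.08, adjusted p 0.0483 by edgeR). The call sat near the threshold and was lost in 8 of 9 omissions of 1 library, all but that of high-fat renin replicate 2 (adjusted p up to 0.125), by limma (-0.16, adjusted p 0.264) and with the clock score (-0.23, adjusted p 0.709). Its relative Atg2b was called nowhere, with log2 fold changes from -0.06 to 0.22.

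Among the 10 conjugation genes and proteases, 3 rose between chow renin and high-fat renin, where 13.5% of genes at the members' level were higher, and 1 fell between chow control and chow renin, where 4.86% were lower. Atg4d (ENSMUSG00000002820, GRCm38 chromosome 9, 21265293 to 21277772, plus strand) encodes 1 of the 4 proteases that trim LC3 and GABARAP. Atg4d measured 52.8, 59.0, 43.7 and 50.4 CPM in chow control and 40.1 to 43.5 with a median of 40.7 in chow renin. High-fat control ranged from 44.4 to 57.9 with a median of 47.9, and high-fat renin measured 51.4, 42.1, 44.8, 46.9 and 44.0 CPM. All 6 chow renin hearts were below all chow controls, by a narrow gap. The log2 fold change was -0.33 (SE 0.08, adjusted p 0.00595 by edgeR), and without chow control replicate 2 the adjusted p was 0.0613. The call was also lost by limma (-0.25, adjusted p 0.258) and at a mean of at least 20 CPM (-0.25, adjusted p 0.0803). With the central nervous score in the fit the log2 fold change was 0.02 (adjusted p 0.992). Of the TPM of Atg4d, 49.3% and 40.6% came from 2 transcripts annotated as retained introns and 6.12% from coding ones. Kri1, on the opposite strand, shares 16.5% of its 31-base words and had 35.5% as many reads, so the Atg4d value may hold reads of Kri1.

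Atg4a, Atg16l1 and Atg12 were the 3 that rose. Atg4a, another of the proteases, measured 6.23, 4.67, 5.61 and 5.38 CPM in chow control and 5.90, 6.34, 6.50, 5.72 and 5.93 in high-fat renin. It ranged from 4.25 to 5.66 CPM with a median of 4.89 in chow renin and from 5.33 to 5.93 with a median of 5.73 in high-fat control. High-fat renin was above chow renin in 5 of 5 hearts, by a log2 fold change of 0.30 (SE 0.10, adjusted p 0.026 by edgeR), a call lost in 6 of 11 omissions of 1 library (chow renin replicates 1, 3 and 5 and high-fat renin replicates 1, 2 and 3, adjusted p up to 0.1096). Without the libraries of high atrial markers it was 0.15 (adjusted p 0.424), and on the log2(TPM + 1) scale of limma 0.17 (adjusted p 0.219). Of the 31-base words of Atg4a, 60.8% also lie in the pseudogene Atg4a-ps, which measured at most 0.157 CPM. Syt6 holds 14.75% of the Atg4a words and had a mean of 0.894 CPM in chow renin and 0.265 in high-fat renin. The assignment of Atg4a is therefore uncertain.

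Atg16l1 encodes the protein that places the conjugation machinery on the membrane. Atg16l1 measured 35.2, 35.4, 30.4 and 30.7 CPM in chow control and 37.6, 39.3, 32.3, 32.1 and 35.4 in high-fat renin. Chow renin ranged from 27.4 to 32.8 with a median of 30.2 and high-fat control from 25.6 to 34.8 with a median of 31.9 CPM. Of the high-fat renin hearts 3 of 5 were above all chow renin hearts, with a log2 fold change of 0.23 (SE 0.08, adjusted p 0.0338 by edgeR). The call was lost in 8 of 11 omissions of 1 library (all but chow renin replicate 2 and high-fat renin replicates 3 and 4, adjusted p up to 0.152). It held under 4 of 12 other settings. Among the losses were limma (0.14, adjusted p 0.391) and the central nervous score (0.10, adjusted p 0.997).

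Atg12 encodes the ubiquitin-like partner of ATG5. Atg12 measured 24.7, 22.4, 23.2 and 26.3 CPM in chow control and 28.1, 29.6, 26.7, 21.3 and 26.1 in high-fat renin. It ranged from 22.1 to 24.0 CPM with a median of 22.7 in chow renin and from 21.3 to 26.2 with a median of 24.3 in high-fat control. High-fat renin replicate 4 lay below all chow renin hearts and the other 4 above them, with a log2 fold change of 0.21 (SE 0.07, adjusted p 0.0379 by edgeR). The call was lost in 9 of 11 omissions of 1 library (all but chow renin replicate 2 and high-fat renin replicate 4, adjusted p up to 0.177) and held under 2 of 12 other settings, with 0.07 by limma (adjusted p 0.651) and 0.14 at a mean of at least 20 CPM (adjusted p 0.167).

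The lowest member, Atg4c, was called nowhere. Atg4c measured 4.53, 5.05, 5.50 and 4.56 CPM in chow control and 4.13, 4.48, 5.85, 4.67 and 4.46 in high-fat renin. Values in chow renin ranged from 4.74 to 5.63 with a median of 5.29 and high-fat control from 4.22 to 5.62 with a median of 4.78 CPM. Atg3, Atg4b, Atg5, Atg7 and Atg10 were not called either, with log2 fold changes from -0.24 to 0.25. Atg7 and Atg5, whose proteins are needed for the conjugation step, gave 0.10 (adjusted p 0.562 by edgeR) and -0.05 (adjusted p 0.814 by edgeR) in high-fat renin against chow control.

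Of the 5 LC3 and GABARAP genes, Map1lc3a fell under renin on the high-fat diet and the other 4 were called nowhere. Map1lc3a (ENSMUSG00000027602, GRCm38 chromosome 2, 155276297 to 155278073, plus strand) measured 256, 259, 242 and 261 CPM in chow control and 221 to 261 with a median of 236 in chow renin. It ranged from 269 to 372 CPM with a median of 302 in high-fat control and measured 189, 247, 273, 293 and 222 in high-fat renin. High-fat control held the highest levels, all 6 above all 4 chow controls, although the log2 fold change of 0.28 between these groups did not pass (adjusted p 0.282 by edgeR). Against high-fat control, high-fat renin gave -0.33 (SE 0.09, adjusted p 0.0202 by edgeR), with 3 of 5 hearts below all controls. The call was lost without high-fat renin replicate 1 or 5 (adjusted p up to 0.0688), with only the 2 groups in the fit (adjusted p 0.0963), with the clock score (-0.11, adjusted p 0.894) and on the log2(TPM + 1) scale of limma (-0.20, adjusted p 0.136).

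Map1lc3b encodes LC3B, the protein most used to count autophagosomes in cells. Map1lc3b measured 165, 179, 169.9 and 176 CPM in chow control and 150.3, 178, 166, 164 and 163 in high-fat renin. Chow renin ranged from 159 to 175 with a median of 166 and high-fat control from 157 to 182 with a median of 170.1 CPM. The groups overlapped, and its log2 fold changes lay between -0.07 and 0.00. Gabarapl1 measured 95.6, 103, 134 and 115 CPM in chow control and 106, 125, 132, 100.3 and 148 in high-fat renin. It ranged from 105 to 144 CPM with a median of 136 in chow renin and from 95.8 to 152 with a median of 103 in high-fat control. This relative of GABARAP had the highest coefficient of variation averaged over the groups, and its largest log2 fold change, 0.20 in chow renin, did not pass (adjusted p 0.383 by edgeR).

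None of the 4 ubiquitin-binding cargo receptors was called. Sqstm1 encodes p62, which carries ubiquitin-marked cargo to LC3 and is itself degraded by autophagy. Sqstm1 measured 327, 338, 465 and 442 CPM in chow control and 371, 601, 507, 386 and 500.1 in high-fat renin. Values in chow renin ranged from 360.3 to 514 with a median of 457 and high-fat control from 372 to 459 with a median of 401 CPM. The groups overlapped, and high-fat renin against chow control gave a log2 fold change of 0.27 (SE 0.13, adjusted p 0.224 by edgeR). Nbr1, Optn and Tax1bp1 had log2 fold changes from -0.25 to 0.28, and under renin on the high-fat diet all 4 receptors had a positive sign, 0.12 to 0.21, without a call by edgeR.

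Tfeb encodes the transcription factor that binds CACGTG in lysosomal and autophagy genes and is controlled largely through its entry into the nucleus. Tfeb measured 31.9, 33.0, 24.7 and 31.7 CPM in chow control and 23.0, 25.3, 31.4, 31.3 and 21.7 in high-fat renin. Chow renin ranged from 23.6 to 28.3 with a median of 26.8 and high-fat control from 25.7 to 34.6 with a median of 29.7 CPM. The groups overlapped, and no comparison was called, with log2 fold changes from -0.20 to 0.04.

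The 5 high-fat renin hearts differed among themselves in the 5 genes called against high-fat control. Replicate 4 was nearest to the high-fat control mean in all 5 genes and replicate 3 was next. For Bnip3 the log2 ratio to that mean was 0.44, 0.64, 0.30, 0.06 and 0.47 in replicates 1 to 5. For Pink1 it was -0.97, -0.55, -0.24, -0.18 and -0.77. Replicates 1, 2 and 5 thus carried most of the rise of Bnip3, Wipi1 and Ulk2 and most of the fall of Pink1 and Map1lc3a. The clock score moved with them, at -2.18, -2.91 and -2.93 in replicates 1, 2 and 5 and at -3.36 and -3.26 in replicates 3 and 4, beside -3.61 to -3.31 in high-fat control. The mitochondrial share of reads was 29.8%, 35.2%, 33.7%, 35.5% and 33.6% in replicates 1 to 5 and 33.7 to 38.2% in high-fat control, replicate 1 being the lowest of all 21 hearts, and its part in these values was not tested. Of the variance of the score, 64.3% lay between groups, and with it as a covariate 0 of the 40 and 0 of all 15216 genes were called in this comparison. Collection times of the hearts are not given in the sources used here, and the part of the clock in these differences cannot be told apart from that of the group.

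**Figure D4:**
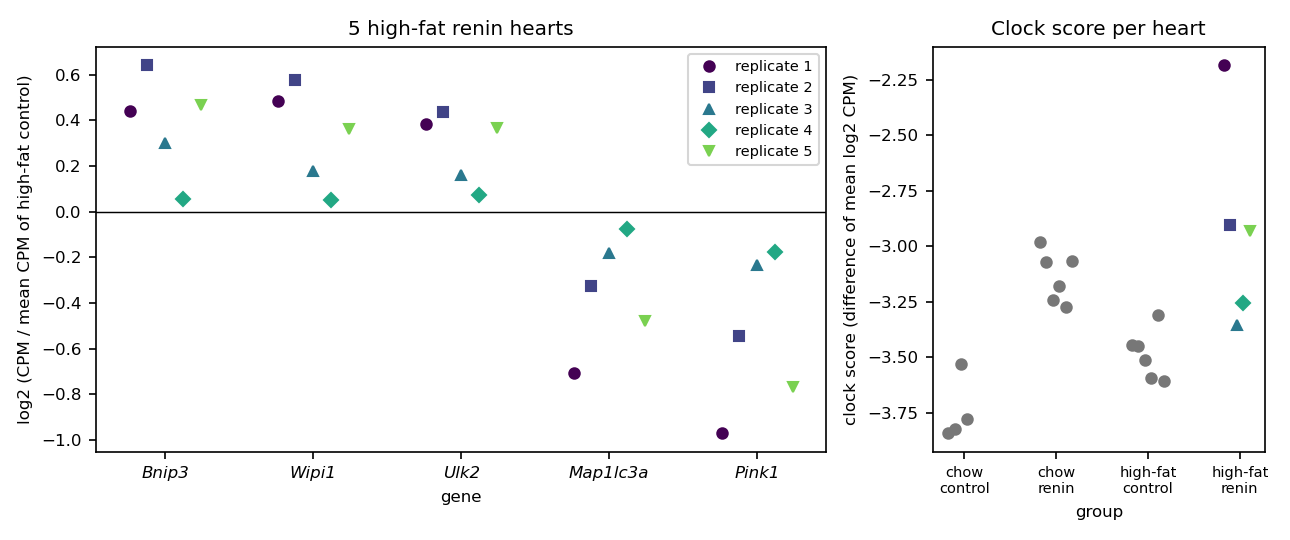
Left, the log2 ratio of each high-fat renin heart to the high-fat control mean for the 5 genes called in that comparison, with a symbol per replicate. Right, the clock score of every heart by group, with the same symbols for high-fat renin, where replicate 1 has the highest score of all 21 hearts at -2.18.

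Genes of the pathway outside the set were read from 4 lists. Their counts stand beside the shares of all genes given above, which were 4.05% higher and 4.26% lower for high-fat renin against chow control, 6.07% and 5.08% against high-fat control, 9.8% and 12.8% against chow renin, and 10.1% and 3.36% for renin on chow. With the clock score in the fit 0 of all 15216 genes were called between high-fat renin and either control group, so no list call held there. With the central nervous score calls over all genes fell to 0.25% against chow renin, 0.269% for renin on chow and 0.158% for the interaction. The list genes were not followed singly through these settings. Among 24 further genes of autophagosome formation and fusion, high-fat renin had 1 higher and 1 lower against chow control, 1 higher against high-fat control, and 2 higher and 2 lower against chow renin. Trp53inp2, which escorts LC3 out of the nucleus, was higher in all 3, with log2 fold changes of 0.44 (adjusted p 0.00464 by edgeR), 0.44 (adjusted p 0.00198 by edgeR) and 0.62 (adjusted p 2.9e-06 by edgeR). Its interaction was 0.62 (adjusted p 0.000624 by edgeR), beside 0.38 for Ulk2 and 0.42 for Wipi1. Chow renin against chow control had 2 lower, Vps18 at -0.21 and Tmem41b at -0.19, and high-fat control had none.

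Among 23 other cargo receptors and mitophagy genes, Calcoco1, a receptor for parts of the endoplasmic reticulum, and Nipsnap2, a mitochondrial protein that recruits autophagy receptors, were the 2 lower against chow control, at -0.31 (adjusted p 0.0249 by edgeR) and -0.33 (adjusted p 0.0417 by edgeR) in high-fat renin, with 0 higher. Against high-fat control 3 were lower, Nipsnap2 at -0.39, Calcoco1 at -0.30 and Fis1, a gene of mitochondrial fission, at -0.25, and 0 higher. Against chow renin 2 were higher and 2 lower, among them Stbd1 at 0.70, Nipsnap1 at -0.97 and Calcoco1 at -0.27. In chow renin against chow control Nipsnap1 was higher by 1.09 (adjusted p 0.0128 by edgeR), and Stbd1, a receptor for glycogen, and Mul1 were lower by log2 fold changes of -0.69 and -0.22. The central nervous markers, 301 to 494 CPM in chow renin against 103 to 109 in chow control, moved with Nipsnap1, and their part in it was not tested.

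Of 23 upstream regulators, 2 were higher and 3 lower between high-fat renin and chow control. The 2 beta subunits of AMPK, the energy sensor that activates ULK1, went opposite ways. Prkab1 was lower, at -0.55 on the log2 scale (adjusted p 0.000544 by edgeR), and Prkab2 higher, at 0.65 (adjusted p 0.0204 by edgeR). Deptor, an inhibitory partner of mTOR, was higher by 0.40 (adjusted p 0.00474 by edgeR). Against high-fat control 2 were higher and 2 lower, among them Prkab1 at -0.45 (adjusted p 0.0013 by edgeR), Mtor, the kinase that restrains ULK1, at 0.41 (adjusted p 0.0116 by edgeR) and Prkag1 at -0.25 (adjusted p 0.0124 by edgeR). Against chow renin 5 were higher and 1 lower, Prkab1 being the lower one at -0.40 (adjusted p 0.000463 by edgeR). Renin on chow had 1 higher, Sesn2 at 0.37, and 1 lower, Prkag1 at -0.22.

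Of 24 lysosomal genes, high-fat renin had 3 higher and 0 lower against chow control, 4 higher and 0 lower against high-fat control, and 6 higher and 1 lower against chow renin. Ctsd, the protease cathepsin D, and Atp6v1h, a subunit of the proton pump that acidifies the lysosome, were higher in all 3. Atp6v1h was higher by 0.48 on the log2 scale against chow control (adjusted p 0.00341 by edgeR), 0.42 against high-fat control (adjusted p 0.00303 by edgeR) and 0.23 against chow renin (adjusted p 0.0496 by edgeR). Ctsd gave 0.34 (adjusted p 0.0347 by edgeR), 0.29 (adjusted p 0.0364 by edgeR) and 0.41 (adjusted p 0.00165 by edgeR) in the 3 comparisons. The list's median log2 fold change was 0.08, 0.05 and 0.09, beside medians of all genes of 0.01, -0.01 and 0.02. The 5 fibroblast markers, 633 to 948 CPM in sum in high-fat renin with a median of 704, measured 449.6 to 800.1 CPM (median 472) in chow control, 421 to 633 (median 433) in chow renin and 455 to 898 (median 501) in high-fat control. These sums overlapped between high-fat renin and each other group. The overlap with chow renin was narrow, the lowest high-fat renin sum being 632.8 CPM and the highest chow renin sum 633.5. The part of these markers in the lysosomal genes was not tested. In chow renin against chow control 1 was higher, Atp6v1a at 0.58, and in high-fat control 0 were called in each of the 4 lists.

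The authors' deposited table lists, per gene, fold changes on the log2 scale with adjusted p-values for the high-fat diet with virus, without naming the reference group. In it 4 of the 40 genes had an adjusted p under 0.05, against 8.04% of 16122 genes. By the authors' deposited table these were Bnip3 at 0.49 (adjusted p 0.00181), Becn1 at 0.37 (adjusted p 0.00275), Ulk2 at 0.22 (adjusted p 0.047) and Atg9a at -0.17 (adjusted p 0.0297). Bnip3 and Atg9a were called with the same sign by edgeR between high-fat renin and chow control, and Becn1 and Ulk2 missed the threshold there at 0.19 and 0.27. The authors' deposited table has Pink1 at -0.19 (adjusted p 0.0969).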

How the data were processed

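RNA from 21 mouse hearts was measured by bulk RNA-seq. The authors deposited, for each library, estimated counts and TPM per transcript in the layout of Salmon, which the submitters' processing notes name with version 1.10.2, beside DESeq2 1.40.2 and the build GRCm38/mm10. The authors also deposited a gene matrix of normalized signal, whose unit is not given in the sources used here, and a table that holds, per gene, log2 fold changes with adjusted p-values of 1 comparison, with the reference group not named.

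Estimated counts were summed to genes through the GENCODE M21 annotation, which matched 98.0% of 119215 transcripts, and rounded to whole numbers. The 0.857 to 0.925% of reads on unmatched transcripts were left out. The tests had been laid out for whole counts, and rounded estimates were used in their place. Genes were filtered with filterByExpr of edgeR 4.0.16 (R 4.3.3), which kept 15216 of 23718 genes with reads and 99.96% of reads. TMM factors were 0.886 to 1.09. A robust quasi-likelihood fit with 1 mean per group over all 21 libraries gave 6 contrasts, with Benjamini-Hochberg adjustment over all tested genes and a threshold of 0.05. The step was tested on simulated data. CPM are TMM-scaled, and log2 CPM used a prior count of 2.

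Each contrast was recomputed with DESeq2 1.42.0, upper-quartile factors, no filter on low counts, a mean of at least 20 CPM, limma 3.58.1 on log2(TPM + 1) for genes with a mean of at least 1 TPM, only the groups compared, the replicate number as a block, a clock, central nervous or atrial score as a covariate, libraries thinned to the smallest total, and each library left out in turn. Leaving out the libraries of an atrial score (mean log2 CPM of 6 atrial markers) over 5 was added after seeing the data. The gene set and the pathway and marker lists were chosen with earlier results of these data known. Values per library are given for 10 genes chosen by role, for the 5 called genes of smallest adjusted p in each comparison, and for the genes of highest and lowest TPM in chow control. Other called members are named as well, and of each pathway list at most 3 genes per comparison. Shared sequence between genes was counted as 31-base words of the annotated transcripts.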

Additional observations from a re-analysis of the deposited data

Results flagged for a closer look

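In 3 of 76 gene and group combinations a heart stood far from the rest of its group by Dixon's gap test, where chance gives about 1 in 20. These were Atg4d in chow renin replicate 4 at 43.5 CPM, the highest of its group, Atg9a in high-fat renin replicate 3 at 82.2 CPM, the highest of its group, and Tfeb in chow control replicate 3 at 24.7 CPM, the lowest of its group. The latter 2 libraries also had high atrial markers, and the part of these in the values was not tested.

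The effect of renin on Ulk2 and on Wipi1 differed between diets by the interaction term of edgeR, by 0.38 and 0.42 on the log2 scale. These calls were lost in 6 of 11 other settings for Ulk2 and 7 of 11 for Wipi1, and in 14 and 16 of 21 omissions of 1 library, and with the central nervous score in the fit the sign of both turned.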

How the results depend on the processing

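Of 40 genes, high-fat renin against chow control called 4, and 7 with DESeq2, 7 at a mean of at least 20 CPM, 1 with no filter, 2 with limma, 2 after thinning and 0 with the clock score, where all genes gave 8.31%, 10.1% (of those with an adjusted p), 15.7%, 4.12%, 5.79%, 8.03% and 0%. Chow renin against chow control called 3, and 1 at a mean of at least 20 CPM, 1 with limma, 1 with the clock score and 0 with the central nervous score (all genes 13.5%, 3.45%, 5.02%, 9.82% and 0.269%). High-fat renin against high-fat control called 5, and 9 with limma, 1 with only the groups compared and 0 with the clock score (all genes 11.1%, 14.8%, 3.81% and 0%). High-fat renin against chow renin called 6, and 3 each with upper-quartile factors, no filter, a mean of at least 20 CPM, the clock score and thinning, 1 with limma, 0 with the central nervous score and 2 without the libraries of high atrial markers (all genes 22.6%, then 20.3%, 12.6%, 17.2%, 17.4%, 20.2%, 11.1%, 0.25% and 16.2%). The limma call was not among the 6. The interaction called 2, and 0 with upper-quartile factors, no filter, a mean of at least 20 CPM, limma, the central nervous score or without the libraries of high atrial markers (all genes 10.4%, then 9.73%, 5.73%, 3.2%, 3.65%, 0.158% and 7.17%). High-fat control against chow control called 0 throughout, with 1 to 7 genes at an unadjusted p under 0.05 over the settings. Leaving out 1 library gave 1 to 6, 1 to 3, 0 to 0, 2 to 7, 2 to 9 and 0 to 5 calls in high-fat renin and chow renin against chow control, high-fat control against chow control, renin on the high-fat diet, diet under renin, and the interaction, where all genes gave 3.68 to 11.4%, 9.83 to 14.8%, 0 to 0.375%, 4.58 to 15.8%, 16.3 to 24.2% and 7.98 to 12.9%. With the central nervous score the sign turned for Atg4d in chow renin (0.016), Wipi1 against chow renin (-0.14) and the interactions of Ulk2 (-0.0105) and Wipi1 (-0.16). The cause of these changes was not tested. With the replicate block the 6 comparisons in that order called 4, 3, 0, 6, 5 and 1 (all genes 8.71%, 14.8%, 0%, 10.4%, 24.1% and 10.6%). The sources used here do not state that the replicate numbers pair the hearts. Of 28 same-number pairs 11 had a correlation over 0.1, with a median of 0.0775 beside -0.0248 for pairs of other numbers. Replicate 3 had high atrial markers in all 4 groups. Pairing of the hearts by number cannot be told from these values. Called genes kept their call in 153 of 237 other settings and 139 of 229 omissions of 1 library. The limma scale shifted the median of all genes by up to 0.116, and the interaction uses all groups, so it has no value with only the groups compared.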
